A study of Mus musculus with 6 samples.

Results

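The nuclear-encoded subunits of the respiratory chain were described in cultured mouse colon fibroblasts, in 3 libraries labelled WT and 3 libraries labelled Prkcz-/-. They were found by gene symbol (names starting Ndufa, Ndufb, Ndufc, Ndufs, Ndufv, Uqcr, Cox4 to Cox8 or Atp5, and Sdha, Sdhb, Sdhc, Sdhd, Cyc1 and Cycs), which matched 91 of the 16874 genes measured. Of these, 80 encode subunits: 36 of complex I, 4 of complex II, 9 of complex III, cytochrome c, 15 of complex IV and 15 of complex V. The other 11 are the 7 complex I assembly factors Ndufaf1 to Ndufaf7, together with Atp5s, Atp5sl, Cox7a2l and Ndufa4l2.

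The respiratory chain sits in the inner mitochondrial membrane. Complex I takes electrons from NADH and complex II takes them from succinate; both hand them to coenzyme Q, complex III moves them on to cytochrome c, and complex IV passes them to oxygen. Complexes I, III and IV pump protons as they do so, and complex V, the ATP synthase, uses the returning protons to make ATP. Most subunits are encoded in the nucleus, and a small catalytic set is encoded by the mitochondrial genome, of which 0 genes had a row here. Cultured fibroblasts make ATP by both glycolysis and respiration, and the subunit mRNAs are among their abundant, housekeeping transcripts.

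Both groups were fibroblasts of the colon from C57BL/6 mice of 12 weeks, grown in serum-containing medium without treatment and harvested 24 h after plating at about 80% confluency. The group labelled Prkcz-/- carries a knockout of the atypical protein kinase C zeta gene in its label, and the group labelled WT does not. The series' design text also names control and Sox2 guides, but the labels of these 6 libraries state a genotype alone, so guides cannot be assigned to them. No label ties a library to its own mouse or culture, and within a group the titles differ in a serial number alone, so p-values measure the spread between these libraries, which may be technical. Values are FPKM (reads per kilobase of a gene, scaled to the depth of the library), and a log2 change is the libraries labelled Prkcz-/- minus WT on log2(FPKM + 0.5), tested with limma over all 12130 genes whose mean reached 0.5 FPKM. A gene was called higher or lower at a Benjamini-Hochberg adjusted p under 0.05.

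Several facts of the libraries bear on every value below. Prkcz measured 0.0433, 0.144 and 0.202 FPKM in WT libraries 1 to 3 and 1.35, 1.32 and 1.17 FPKM in libraries 1 to 3 labelled Prkcz-/-, against what its label says (log2 change 1.51, SE 0.148, limma adjusted p = 4.65e-05), so directions below refer to the labels alone. Depth was about 15000000 to 16000000 reads in each library, estimated from the smallest FPKM steps and annotated exon lengths. The FPKM of all genes summed to between 459388 and 486793 in the WT libraries and between 441972 and 442730 in the others. All 10 fibroblast markers had rows, and their summed level was 6114 to 6452 FPKM in WT and 8221 to 8509 FPKM in the others. Of 9 epithelial markers 8 were under 0.5 FPKM in every library, and the mesothelial marker sum, led by Msln, was 5.13 to 5.87 FPKM in WT and 0.158 to 0.195 FPKM in the others. Summed endothelial markers reached at most 0.378 FPKM and immune markers between 2.18 and 3.26 FPKM, and glial and neuronal markers, led by Tubb3, were at 16.5 to 20.2 and 35.6 to 37.2 FPKM. Summed smooth muscle markers, led by Acta2, which fibroblasts also express, were at 1663 to 1809 and 2048 to 2131 FPKM, but the list was divided. Acta2 was higher (log2 change 0.70). Actg2, the enteric smooth muscle actin, fell from 461 ± 16.3 to 52.9 ± 2.81 FPKM (SD, n = 3; log2 change -3.11, SE 0.0469, limma adjusted p = 3.66e-09). Smtn was also lower (log2 change -0.70), Myh11 and Cnn1 were not called, and Des, left out of the test, was at 0.374 to 0.719 and 0.230 to 0.297 FPKM. The part of these differences in the subunit values was not tested, and in RNA from a whole culture fewer cells of a type and less RNA per cell cannot be told apart.

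Most respiratory chain subunit mRNAs differed by a small step, and more of them were lower than higher in the libraries labelled Prkcz-/-. Of 77 tested subunits, 41 were lower (53.2%), 20 were higher (26%) and 16 were not called. Among all 12130 genes tested, 68.7% were called, 37.2% lower and 31.5% higher. Subunits are abundant, and abundant genes had a similar split: of 1778 genes whose mean reached 50 FPKM, 81.4% were called, 54.7% lower and 26.7% higher, against 54.5% and 25.8% of the 66 subunits above that level. The share of lower calls among the subunits is close to that of all genes above that level and is not read as a feature of the chain. This class of genes includes the subunits and is not matched to them in level. The median log2 change was -0.23 over the 77 subunits, -0.16 over the abundant genes and -0.04 over all genes.

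The steps were narrow. Of the 61 called subunits, 47 (77.0%) had a log2 change of less than 0.5 in size, compared with 58.3% of all called genes. Equally abundant genes had a similar spread. The lower and upper quartiles of the log2 change were -0.40 and 0.10 over the 77 subunits and -0.40 and 0.13 over the abundant genes. The narrow steps are therefore not read as a feature of the chain. Of the subunits, only Cox6a2 and Cox6b2, with group means between 0.503 and 5.70 FPKM, passed a log2 change of 1, a size that 10.8% of all tested genes passed. The deepest fall was that of Uqcrb, at 1.64-fold. Groups did not overlap for 61 of the 77 subunits (79.2%), compared with 72.7% of all genes and 84.0% of the abundant ones.

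**Figure D1:**
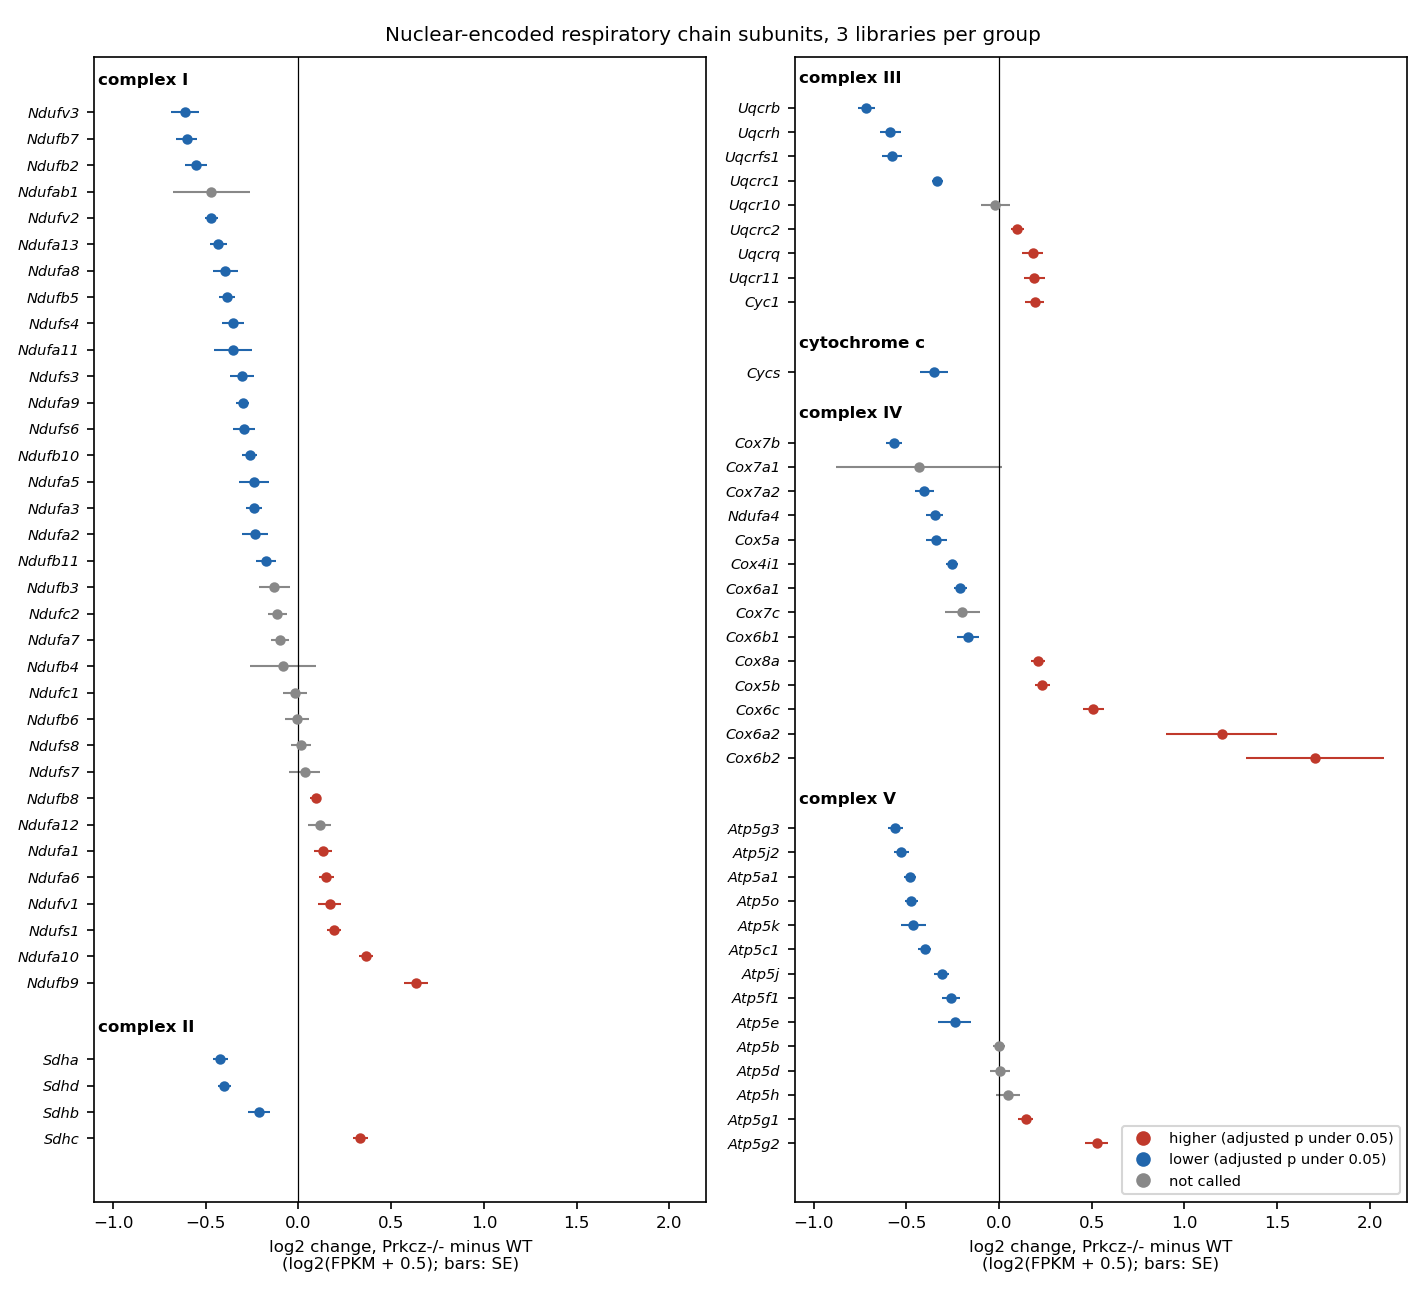
Log2 change of the tested subunits reported here (libraries labelled Prkcz-/- minus WT, on log2(FPKM + 0.5); points are estimates, bars are SE, 3 libraries per group), grouped by complex. Blue points (lower), red points (higher) and grey points (not called) occur side by side in complexes I, III, IV and V, and most lie within 0.5 of no change.

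Summed over all subunits, mRNA measured 13775, 12574 and 12877 FPKM in WT libraries 1 to 3 and 11458, 11686 and 11843 FPKM in those labelled Prkcz-/-, so the groups did not overlap. As a share of all FPKM in a library, this was 2.74% to 2.83% in WT and 2.59% to 2.67% in the others. By complex, the mean summed FPKM of the libraries labelled Prkcz-/- was 93.5% of the WT mean for complex I, 91.6% for complex II, 88.5% for complex III, 93.7% for complex IV and 82.7% for complex V. These percentages are not scaled to the FPKM of all genes, which also summed lower in the libraries labelled Prkcz-/-. That sum was 441972 to 442730 there and 459388 to 486793 in WT. The same holds for the sums of parts of a complex given below. The complexes were not tested against each other. WT library 1 held the highest WT value for 61 of the 77 subunits, where it did so for 33.1% of all genes. Without that library the median log2 change of the subunits was -0.17, and 39 were lower and 22 higher.

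**Figure D2:**
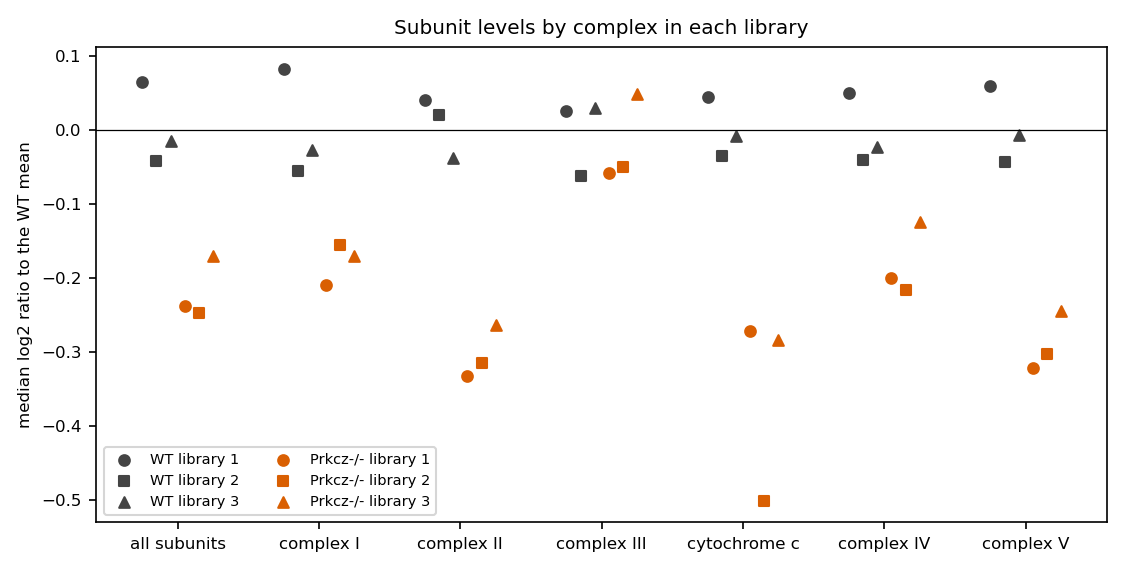
Median log2 ratio to the WT mean over the tested subunits of each complex, for each of the 6 libraries. The 3 libraries labelled Prkcz-/- lie at -0.32 to -0.24 for complex V and at -0.06 to 0.05 for complex III, where they overlap the WT libraries at -0.06 to 0.03.

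Complex I, the NADH dehydrogenase, had 17 lower, 8 higher and 10 uncalled subunits among 35 tested, with a median log2 change of -0.18. This median was -0.10 when short RNA genes were left out of the scaling and -0.07 after quantile normalization. Here and below, leaving out short RNA genes also meant scaling every library to the same FPKM sum of its remaining genes. The fit over all genes made no such rescaling, and the dropping and the rescaling were not told apart. The 7 nuclear core subunits, which hold the flavin, the iron-sulphur clusters and the quinone site, divided into 3 higher, 2 lower and 2 uncalled (median 0.03), and their summed FPKM was 101% of WT. The 28 tested accessory subunits, which surround and stabilise the core, divided into 5 higher, 15 lower and 8 uncalled (median -0.24), and their sum was 92.0% of WT. The gap between core and accessory subunits was not tested.

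Within the core, subunits of the NADH-oxidising tip did not all move together. Ndufs1, its large iron-sulphur protein, measured 51.5, 48.8 and 48.7 FPKM in WT libraries 1 to 3 and 57.3, 55.0 and 58.2 FPKM in libraries 1 to 3 labelled Prkcz-/- (log2 change 0.19, SE 0.0389, limma adjusted p = 0.00266). Ndufv2, which carries another iron-sulphur cluster beside it, measured 79.7, 74.7 and 75.7 FPKM in WT libraries 1 to 3 and 54.3, 55.8 and 55.6 FPKM in libraries 1 to 3 labelled Prkcz-/- (log2 change -0.47, SE 0.0360, limma adjusted p = 1.17e-05). The WT libraries lay below the others for Ndufs1 and above them for Ndufv2, with no overlap in either. Ndufv1, the flavin subunit that oxidises NADH, measured 81.7, 68.2 and 73.4 FPKM in WT libraries 1 to 3 and 81.3, 84.9 and 84.4 FPKM in libraries 1 to 3 labelled Prkcz-/- (log2 change 0.17, SE 0.0625, limma adjusted p = 0.0413). Its groups overlapped, and the call was lost on leaving out any single library except WT library 1 (limma adjusted p up to 0.106). Ndufv1 and Ndufv2 are named here after their values were seen, as the core partners of Ndufs1.

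Accessory subunits held the extremes of the complex. Ndufb9, of the membrane arm, was also among the most abundant complex I mRNAs and rose most, at 203, 173 and 172 FPKM in WT libraries 1 to 3 and 274, 283 and 292 FPKM in libraries 1 to 3 labelled Prkcz-/- (log2 change 0.63, SE 0.0648, limma adjusted p = 5.90e-05). Its value is uncertain, because the gene model Gm49356 overlaps it on the same strand and 20.2% of its 76-base stretches occur there too. Ndufa10, another membrane arm subunit, rose from 64.9 ± 1.57 to 83.6 ± 3.25 FPKM (SD, n = 3; log2 change 0.36, SE 0.0392, limma adjusted p = 8.07e-05), with every value above the WT range. The deepest falls were in Ndufv3, Ndufb7 and Ndufb2. Ndufv3, which sits by the NADH site, measured 84.3, 83.8 and 71.8 FPKM in WT and 51.0, 48.7 and 56.5 FPKM in the libraries labelled Prkcz-/-. Ndufb7, on the intermembrane side, measured 167, 147 and 152 FPKM in WT and 102, 97.0 and 107 FPKM in the libraries labelled Prkcz-/-. Ndufb2, of the membrane arm, measured 107, 93.9 and 93.3 FPKM in WT and 64.4, 65.2 and 70.4 FPKM in the libraries labelled Prkcz-/-. Their log2 changes were -0.61 (SE 0.0758), -0.60 (SE 0.0573) and -0.55 (SE 0.0614), with limma adjusted p of 1.77e-04 or less, and the groups did not overlap for any of the 3. Ndufa3, the most abundant complex I mRNA in WT, fell from 308 ± 14.2 to 261 ± 8.24 FPKM (SD, n = 3; log2 change -0.24, SE 0.0430, limma adjusted p = 0.00149).

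Complex II, succinate dehydrogenase, is the one complex shared by the chain and the citric acid cycle, and all of its 4 subunits are nuclear. Its 2 catalytic subunits fell and its 2 membrane anchors went opposite ways. Sdha, the flavoprotein that oxidises succinate, measured 116, 112 and 107 FPKM in WT libraries 1 to 3 and 81.9, 82.7 and 84.9 FPKM in libraries 1 to 3 labelled Prkcz-/- (log2 change -0.42, SE 0.0391, limma adjusted p = 3.49e-05). Sdhb, the iron-sulphur protein, measured 121, 104 and 117 FPKM in WT libraries 1 to 3 and 96.4, 94.8 and 104 FPKM in libraries 1 to 3 labelled Prkcz-/- (log2 change -0.21, SE 0.0607, limma adjusted p = 0.0144); this call was lost under quantile normalization (limma adjusted p = 0.109) and without library 2 labelled Prkcz-/- (limma adjusted p = 0.0518).

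The anchors Sdhc and Sdhd together bind heme and coenzyme Q. Sdhd fell, at 99.2, 103 and 100.1 FPKM in WT and 75, 78.2 and 75.8 FPKM in the libraries labelled Prkcz-/- (log2 change -0.40, SE 0.0330, limma adjusted p = 1.78e-05). Sdhc rose, at 122, 125 and 114 FPKM in WT and 153, 152 and 149 FPKM in the libraries labelled Prkcz-/- (log2 change 0.33, SE 0.0410, limma adjusted p = 1.71e-04). In each of the 4 genes the groups did not overlap. In WT the levels of the 4 genes lay between 99.2 and 125 FPKM; in the libraries labelled Prkcz-/- Sdhc lay at 149 to 153 FPKM and the other 3 at 75 to 104 FPKM.

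Complex III, the cytochrome bc1 complex, was split within each of its functional pairs. Of 9 subunits 4 were higher, 4 lower and 1 uncalled, and the median log2 change was -0.02. The sign of that median depended on the setting: it was 0.01 after median-ratio scaling, 0.06 when short RNA genes were left out of the scaling, 0.11 after quantile normalization and 0.05 without WT library 1. Of its nuclear redox proteins, Uqcrfs1, the Rieske iron-sulphur protein, measured 100.4, 89.0 and 93.0 FPKM in WT libraries 1 to 3 and 62.0, 66.1 and 60.4 FPKM in libraries 1 to 3 labelled Prkcz-/- (log2 change -0.58, SE 0.0537, limma adjusted p = 3.47e-05). Cyc1, cytochrome c1, which takes the electron from the Rieske protein, measured 102, 105 and 116 FPKM in WT libraries 1 to 3 and 126, 121 and 123 FPKM in libraries 1 to 3 labelled Prkcz-/- (log2 change 0.19, SE 0.0498, limma adjusted p = 0.00936). No library overlapped the other group in either gene, and the directions were opposite.

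The same held for the core proteins, which face the matrix and derive from mitochondrial processing peptidases. Uqcrc1 fell, at 126, 131 and 126 FPKM in WT and 101, 101 and 102 FPKM in the libraries labelled Prkcz-/- (log2 change -0.33, SE 0.0300, limma adjusted p = 2.97e-05). Uqcrc2 rose, at 60.5, 59.7 and 61.9 FPKM in WT and 65.3, 63.6 and 66.2 FPKM in the libraries labelled Prkcz-/- (log2 change 0.10, SE 0.0329, limma adjusted p = 0.0270), a small step whose call was lost without WT library 1 or 2 or library 1 or 3 labelled Prkcz-/- (limma adjusted p = 0.0544, 0.0607, 0.0798 and 0.0949).

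Among the small subunits, Uqcrb, which helps to form the quinone pocket, showed the deepest fall of all 77 subunits. It measured 232, 219 and 234 FPKM in WT libraries 1 to 3 and 133, 137 and 147 FPKM in libraries 1 to 3 labelled Prkcz-/- (log2 change -0.72, SE 0.0472, limma adjusted p = 5.10e-06). All 3 values labelled Prkcz-/- were far under the lowest WT value. However, 28.5% of the gene's 76-base stretches are shared with other genes, chiefly the gene model Gm16089, so the level is uncertain. Uqcrh, the acidic hinge protein between cytochrome c1 and cytochrome c, fell, at 306, 278 and 269 FPKM in WT and 179, 191 and 197 FPKM in the libraries labelled Prkcz-/- (log2 change -0.59, SE 0.0563, limma adjusted p = 4.15e-05). Uqcr11 and Uqcrq rose, with log2 changes of 0.19 and 0.18 (SE 0.0565 and 0.0554, limma adjusted p = 0.0170 and 0.0194). Both calls were lost without library 2 or 3 labelled Prkcz-/- (limma adjusted p from 0.0539 to 0.0623). Uqcr10, the most abundant of the complex over all 6 libraries, did not pass the test at 306, 244 and 284 FPKM in WT and 266, 267 and 286 FPKM in the libraries labelled Prkcz-/- (log2 change -0.02, SE 0.0780, limma adjusted p = 0.834). Cyc1, Uqcrc2, Uqcr11 and Uqcrq are named here after their values were seen, so that all 9 subunits are given.

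**Figure D3:**
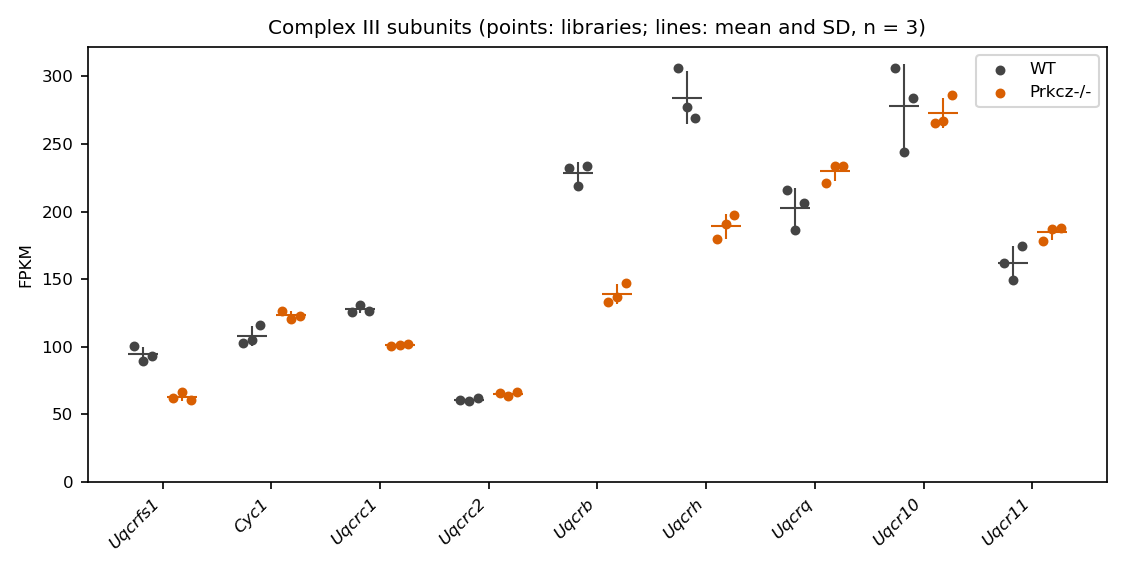
FPKM of the 9 complex III subunits in each library (points) with the mean and SD (n = 3 per group). Uqcrb, Uqcrh, Uqcrfs1 and Uqcrc1 lie lower and Cyc1, Uqcr11, Uqcrq and Uqcrc2 higher in the libraries labelled Prkcz-/-, each without overlap, and Uqcr10 overlaps.

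Cytochrome c, the soluble carrier between complexes III and IV and a trigger of apoptosis when released, was a low mRNA beside its partners. Cycs measured 7.72, 7.28 and 7.42 FPKM in WT libraries 1 to 3 and 6.11, 5.13 and 6.05 FPKM in libraries 1 to 3 labelled Prkcz-/- (log2 change -0.35, SE 0.0762, limma adjusted p = 0.00386). The groups did not overlap; 26.1% of its 76-base stretches occur in 4 other genes, so part of its reads could not be placed with certainty.

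Complex IV, cytochrome c oxidase, had 7 lower, 5 higher and 2 uncalled subunits among 14 tested (median log2 change -0.20, or -0.12 when short RNA genes were left out of the scaling and -0.03 after quantile normalization). The general isoforms, those found in most tissues, supplied all 7 falls and 3 of the rises. Cox4i1, the most abundant of them and a regulatory subunit, measured 539, 520.0 and 506 FPKM in WT libraries 1 to 3 and 437, 437 and 440.2 FPKM in libraries 1 to 3 labelled Prkcz-/- (log2 change -0.25, SE 0.0339, limma adjusted p = 2.86e-04), without overlap. Cox7b, which is needed for assembly in human cells, fell most, at 95.6, 99.7 and 97.4 FPKM in WT and 62.3, 67.1 and 68.0 FPKM in the libraries labelled Prkcz-/- (log2 change -0.57, SE 0.0413, limma adjusted p = 9.05e-06). Ndufa4, once counted with complex I and now placed in complex IV, fell from 386 ± 23.2 to 303 ± 5.91 FPKM (SD, n = 3; log2 change -0.35, SE 0.0463, limma adjusted p = 2.83e-04). Cox6a1, Cox6b1 and Cox7a2, all small supernumerary subunits, had log2 changes of -0.21, -0.17 and -0.40. The calls of Cox4i1, Cox6a1 and Cox6b1 were lost under quantile normalization (limma adjusted p = 0.193, 0.696 and 0.70), and the sign of Cox6a1 then turned to a log2 change of 0.011. The call of Cox6b1 was also lost after median-ratio scaling and when short RNA genes were left out of the scaling (limma adjusted p = 0.0699 and 0.118). It was lost as well with no filter, no variance trend or a replicate block (limma adjusted p = 0.0643, 0.0664 and 0.0670). The same held without WT library 1 or without library 1 or 2 labelled Prkcz-/- (limma adjusted p = 0.0805, 0.116 and 0.0587).

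The general subunits that rose were Cox6c, Cox5b and Cox8a. Cox6c, a single-span membrane subunit, measured 318, 272 and 283 FPKM in WT libraries 1 to 3 and 408, 405 and 426 FPKM in libraries 1 to 3 labelled Prkcz-/- (log2 change 0.51, SE 0.0585, limma adjusted p = 1.16e-04). Cox5b, which binds zinc on the matrix side, rose, at 176, 169.7 and 165 FPKM in WT and 193, 199 and 208 FPKM in the libraries labelled Prkcz-/- (log2 change 0.23, SE 0.0410, limma adjusted p = 0.00127). For both, every library labelled Prkcz-/- lay above every WT library. Cox8a, the short subunit found in most tissues, rose from 306 ± 12.5 to 354 ± 1.78 FPKM (SD, n = 3; log2 change 0.21, SE 0.0365, limma adjusted p = 0.00115), and is named after its value was seen.

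The subunits Cox4, Cox6a, Cox6b and Cox7a of complex IV have tissue-restricted isoforms with rows of their own, and these were low beside the general isoforms. Cox6b2, the testis isoform of Cox6b, measured 0.557, 2.39 and 1.51 FPKM in WT libraries 1 to 3 and 4.05, 4.91 and 8.15 FPKM in libraries 1 to 3 labelled Prkcz-/- (log2 change 1.71, SE 0.371, limma adjusted p = 0.00394), at roughly 9.9 to 40.0 reads in WT and 67.0 to 140.0 reads in the others. Cox6a2, the heart and skeletal muscle isoform, measured 0.494, 0.273 and 0.741 FPKM in WT libraries 1 to 3 and 2.87, 1.80 and 0.992 FPKM in libraries 1 to 3 labelled Prkcz-/- (log2 change 1.20, SE 0.300, limma adjusted p = 0.00787), at about 2.8 to 8.1 and 10.0 to 29.0 reads. Both rose without overlap, and both stayed far below their general partners. Cox4i2, the lung and low-oxygen isoform, was left out of the test, at 0.215, 0 and 0.108 FPKM in WT and 0.356, 0.523 and 0.432 FPKM in the libraries labelled Prkcz-/-, or at most about 6.6 reads. Cox7a1, the heart and muscle isoform of Cox7a, overlapped between the groups at 2.06, 4.57 and 1.72 FPKM in WT and 2.28, 0.670 and 3.11 FPKM in the libraries labelled Prkcz-/- (log2 change -0.43, SE 0.448, limma adjusted p = 0.417).

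As a share of each isoform pair, Cox6b2 made up 0.460% ± 0.297 of the Cox6b mRNA in WT and 1.89% ± 0.614 in the libraries labelled Prkcz-/- (SD, n = 3). The Cox6a2 share was 0.136% ± 0.0648 and 0.586% ± 0.299, and the Cox4i2 share 0.0204% ± 0.0199 and 0.0997% ± 0.0192. Each of these 3 shares gave p = 0.1 in a two-sided exact permutation test, the smallest that 3 libraries against 3 allow, before any adjustment over the 8 shares computed. The Cox7a1 share did not separate (1.48% ± 0.896 and 1.4% ± 0.851, exact p = 1.0), nor did that of the low-oxygen paralogue Ndufa4l2 beside Ndufa4 (0.0937% ± 0.0898 and 0.10% ± 0.00867, exact p = 1.0). Summed striated muscle markers were 3.11 to 3.38 FPKM in WT and 5.60 to 5.76 FPKM in the others, with the defining Ckm and Mb at 0 to 0.103 FPKM in every library. Of the 3 markers tested in that list, Tnnt2, the cardiac troponin T, rose without overlap from 0.605 ± 0.157 to 2.08 ± 0.232 FPKM (SD, n = 3; log2 change 1.23, SE 0.141, limma adjusted p = 1.12e-04), and Acta1 and Tnnc1 were not called. The one germ cell marker with a row, Ddx4, was at 0 in WT and at 0 to 0.128 FPKM in the others; the part of such cells in these isoforms was not tested.

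Complex V, the ATP synthase, had 9 lower, 2 higher and 3 uncalled subunits among 14 tested, at a median log2 change of -0.28 (-0.16 after quantile normalization), and its summed level was 82.7% of WT. In the F1 head, Atp5b, the catalytic beta subunit and the most abundant mRNA of the chain, was not called, at 852, 806 and 832 FPKM in WT libraries 1 to 3 and 829, 835 and 826 FPKM in libraries 1 to 3 labelled Prkcz-/- (log2 change -0.00, SE 0.0340, limma adjusted p = 0.994). Atp5a1, the alpha subunit that alternates with beta in the head, fell, at 343, 331 and 325 FPKM in WT libraries 1 to 3 and 236, 243 and 237 FPKM in libraries 1 to 3 labelled Prkcz-/- (log2 change -0.48, SE 0.0333, limma adjusted p = 6.74e-06). The WT libraries of Atp5a1 lay at 325 FPKM or above and the others at 243 FPKM or below. The result for Atp5b depends on the scaling. Its log2 change was 0.082 with short RNA genes left out and library sums made equal (limma adjusted p = 0.0233). It was 0.17 after quantile normalization (limma adjusted p = 2.28e-04).

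In the peripheral stalk, which holds the head still, 3 of 4 subunits fell and 1 was not called, with a median log2 change of -0.28. In the membrane part, Atp5j2, subunit f, fell, at 521, 478 and 495 FPKM in WT and 338, 353 and 344 FPKM in the libraries labelled Prkcz-/- (log2 change -0.53, SE 0.0402, limma adjusted p = 1.14e-05). Atp5k, subunit e, which helps synthase dimers to form, fell, at 606, 510.1 and 559 FPKM in WT and 379, 405 and 430.0 FPKM in the libraries labelled Prkcz-/- (log2 change -0.46, SE 0.0695, limma adjusted p = 5.40e-04). Neither gene overlapped between the groups, and the summed FPKM of the membrane subunits was 71.1% of WT.

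The c subunit, whose ring turns as protons pass, is made from 3 genes that encode the same mature protein behind different import peptides. They went in different directions. Atp5g3, the main source, measured 455, 429 and 442 FPKM in WT libraries 1 to 3 and 293, 294 and 314 FPKM in libraries 1 to 3 labelled Prkcz-/- (log2 change -0.56, SE 0.0399, limma adjusted p = 8.04e-06). Atp5g2 measured 35.5, 33.4 and 34.3 FPKM in WT libraries 1 to 3 and 50.2, 54.0 and 45.5 FPKM in libraries 1 to 3 labelled Prkcz-/- (log2 change 0.53, SE 0.0621, limma adjusted p = 1.34e-04), with 35.7% of its 76-base stretches also in other genes, chiefly the gene model Gm10175, so that its level is uncertain. Atp5g1 measured 50.7, 48.1 and 51.8 FPKM in WT libraries 1 to 3 and 54.0, 55.7 and 56.8 FPKM in libraries 1 to 3 labelled Prkcz-/- (log2 change 0.14, SE 0.0396, limma adjusted p = 0.0121). Of the 76-base stretches of Atp5g1, 7.2% occur in 31 other genes, a limit on its small rise. No gene of the 3 overlapped between the groups, Atp5g3 being lower and the other two higher in the libraries labelled Prkcz-/-.

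The mix of c subunit mRNA shifted with them. Atp5g3 supplied 83.9% ± 0.194 of it in WT and 74.0% ± 1.32 in the libraries labelled Prkcz-/- (SD, n = 3). The Atp5g2 share was 6.53% ± 0.0412 and 12.3% ± 1.25, and the Atp5g1 share 9.53% ± 0.235 and 13.7% ± 0.101. Each gave an exact permutation p = 0.1, again the smallest possible. Together the 3 genes summed to 527 ± 15.2 FPKM in WT and 406 ± 9.69 FPKM in the others, 77.0% of WT, so the rises of the minor genes were smaller in FPKM than the fall of Atp5g3.

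**Figure D4:**
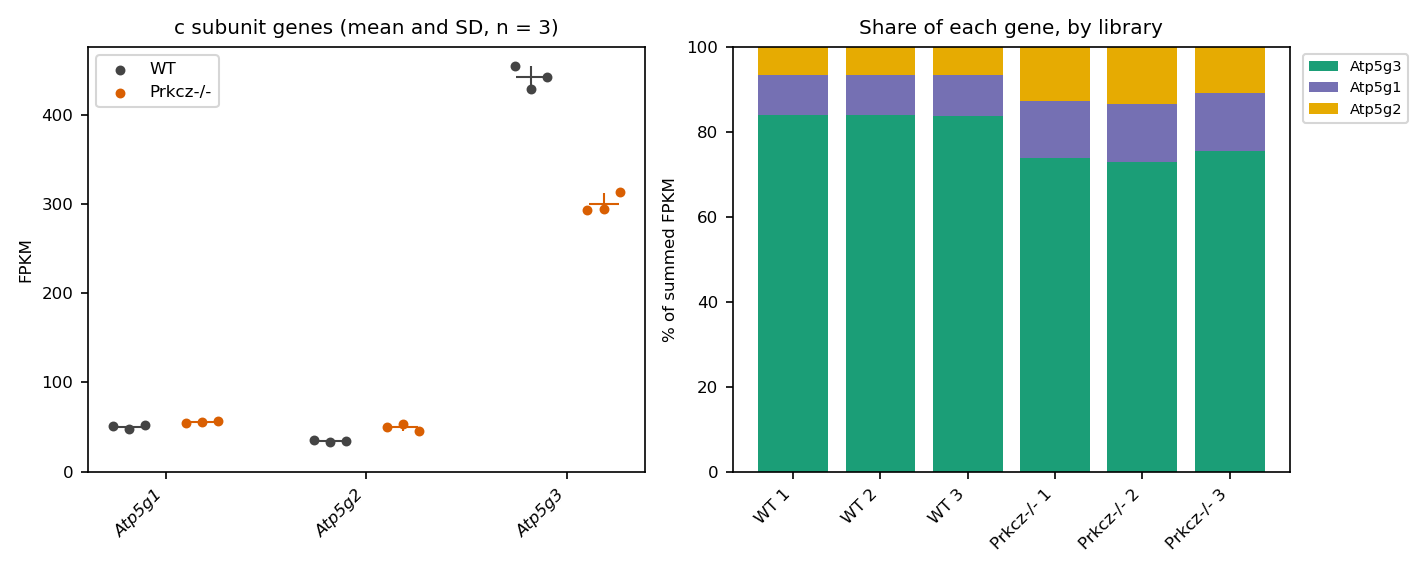
Left, FPKM of the 3 genes for subunit c in each library (points) with mean and SD (n = 3 per group); right, their shares of the summed FPKM by library. The Atp5g3 share lies at 83.7% to 84.1% in the WT libraries and at 72.8% to 75.4% in those labelled Prkcz-/-.

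The promoters of the 3 c subunit genes are shown because genes for the same protein moved apart, and that of Sdha because it holds the NRF1 motif 3 times. The promoter of Ndufb4, named here after its values were seen and not printed, also holds the motif 3 times, and Ndufb4 was not called. NRF1, a transcription factor of many respiratory chain genes, was searched on both strands as GCGCA, any base, then GCGC, and its matches are in capitals. Each run covers 250 bases before to 30 after the RefSeq start (GRCm38.p6, minus strand, printed 5′ to 3′), at chr2:73911297-73911576 for Atp5g3, chr15:102671018-102671297 for Atp5g2, chr11:96075602-96075881 for Atp5g1 and chr13:74350211-74350490 for Sdha.
Atp5g3: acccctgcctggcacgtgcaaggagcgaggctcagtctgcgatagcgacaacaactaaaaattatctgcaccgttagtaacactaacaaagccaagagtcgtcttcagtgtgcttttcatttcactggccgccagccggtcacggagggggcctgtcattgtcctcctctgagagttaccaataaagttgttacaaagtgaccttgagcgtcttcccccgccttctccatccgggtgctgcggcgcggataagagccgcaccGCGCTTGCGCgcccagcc
Atp5g2: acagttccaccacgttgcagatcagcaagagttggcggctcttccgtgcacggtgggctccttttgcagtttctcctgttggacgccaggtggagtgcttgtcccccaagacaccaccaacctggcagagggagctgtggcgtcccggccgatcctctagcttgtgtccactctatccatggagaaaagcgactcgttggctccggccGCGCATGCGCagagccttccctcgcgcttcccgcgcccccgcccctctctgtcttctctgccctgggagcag
Atp5g1: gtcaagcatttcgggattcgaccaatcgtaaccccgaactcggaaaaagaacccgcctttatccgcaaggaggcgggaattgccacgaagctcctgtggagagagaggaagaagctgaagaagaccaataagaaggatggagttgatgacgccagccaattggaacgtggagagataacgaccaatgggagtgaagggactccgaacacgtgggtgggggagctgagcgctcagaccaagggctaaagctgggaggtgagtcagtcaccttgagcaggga
Sdha: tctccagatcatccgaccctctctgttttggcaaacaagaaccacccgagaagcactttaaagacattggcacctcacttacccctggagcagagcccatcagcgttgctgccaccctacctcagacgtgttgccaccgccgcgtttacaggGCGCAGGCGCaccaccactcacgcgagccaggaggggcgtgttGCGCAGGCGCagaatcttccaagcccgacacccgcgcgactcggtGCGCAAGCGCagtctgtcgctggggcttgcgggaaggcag

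Atp5g3, which was lower, and Atp5g2, which was higher, each hold 1 match, and Atp5g1 holds none in this window. Of the 80 subunit genes, 66 had a promoter in RefSeq. The NRF1 letters occurred in 24.2% of them, compared with 11.5% of 9186 tested genes with a promoter and 4.98% of all 27025. They occurred in 12 of 37 promoters of lower subunits, 1 of 11 of higher ones and 2 of 16 of those not called, counts that were not tested. A promoter was at hand for 37 of the 41 lower subunits, 11 of the 20 higher ones and all 16 not called. The higher subunits are thus the least covered. An ETS motif, read by GABPA (CCGGAAG, both strands), occurred in 24.2% of the subunit promoters and 19.9% of those of tested genes. A YY1 motif (AANATGGCG, both strands) occurred in 6.06% and 4.62%. A match is a string of letters and not a measured binding site. The factors' own mRNAs, named after their values were seen, had small differences: Nrf1 went from 16.3 ± 0.338 to 14.1 ± 0.802 FPKM, Gabpa from 24.2 ± 0.734 to 22.4 ± 0.179 FPKM and Yy1 from 48.8 ± 2.58 to 41.7 ± 0.933 FPKM (SD, n = 3), with log2 changes of -0.21, -0.11 and -0.23. Limma called each lower, but the call of Gabpa was lost under the 3 other scalings and on leaving out any library except WT library 3 (limma adjusted p up to 0.582), and that of Nrf1 when short RNA genes were left out of the scaling (limma adjusted p = 0.0828).

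A few members could not be measured well. Ndufs5, a complex I subunit, was listed at 0.00162 to 0.0326 FPKM, under 1 read in every library. The gene BC002163 holds 15.5% of its 76-base stretches and measured 49.0 to 60.0 FPKM in WT and 49.9 to 59.3 FPKM in the others, and reads of Ndufs5 may have been counted there. Atp5l, subunit g of the synthase, was listed at 0 to 0.726 FPKM, and 75.7% of its stretches occur in 9 other genes. These 2 genes, Cox4i2 and Ndufa4l2 were left out by the filter. In all, 37 of the 80 subunits share at least 1 such stretch with another gene. Among the 37 tested subunits with no shared stretch and no overlapping gene, 9 were higher and 20 lower with a median log2 change of -0.24, close to the full set. Pearson's r of log2 change with log10 exon length was -0.11 across the 77 tested subunits. With log2 level it was -0.05 across the 66 abundant subunits. Both values describe genes that share libraries.

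The assembly factors and supply routes around the chain were also divided. The 12 lists hold 122 tested genes beyond the rows matched by symbol, of which 31 were higher (25.4%) and 64 lower (52.5%), with a median log2 change of -0.19. Among all genes tested 31.5% were higher and 37.2% lower, and among those with a mean of at least 50 FPKM 26.7% and 54.7%. Several listed genes, such as Ecsit and Lyrm7, lie far under 50 FPKM, so neither class is matched to the lists in abundance. The counts are not read as a feature of these lists. For complex I assembly, 8 of 14 were lower and 2 higher (median -0.29), including Ndufaf7, a matrix assembly factor, at 13 ± 0.353 to 9.74 ± 0.515 FPKM (SD, n = 3; log2 change -0.40, SE 0.0546, limma adjusted p = 3.34e-04). Ecsit, of the membrane arm assembly complex, had a log2 change of -0.37, and Ndufaf3 and Tmem126b rose by 0.23 and 0.19. The call of Ndufaf3 was lost without library 2 labelled Prkcz-/- (limma adjusted p = 0.057), and that of Tmem126b without WT library 1 or 2 or library 2 or 3 labelled Prkcz-/- (limma adjusted p up to 0.149). For complex II assembly, Sdhaf2, which inserts the flavin into Sdha, rose by 0.24, and the other 3 were not called. For complex III assembly 3 of 6 were higher and 1 lower. Lyrm7, which in human cells holds the Rieske protein before insertion, measured 1.03, 1.20 and 1.25 FPKM in WT and 1.83, 2.31 and 2.09 FPKM in the libraries labelled Prkcz-/- (log2 change 0.63, SE 0.113, limma adjusted p = 0.00142), and thus moved opposite to Uqcrfs1. Uqcc3 rose by 0.59 and Uqcc2 fell by 0.46 on the log2 scale.

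For complex IV assembly 7 of 23 were higher and 9 lower (median -0.11). Cmc2, a small twin-cysteine protein, fell from 17.0 ± 0.825 to 8.79 ± 0.935 FPKM (SD, n = 3; log2 change -0.91, SE 0.0799, limma adjusted p = 2.47e-05), and Cox19, a copper-handling relative, had a log2 change of -0.52. Coa3, which in human cells holds the nascent Cox1 protein, and Sco1, a copper chaperone, rose by 0.51 and 0.42. For complex V, Tmem70, which in human cells helps to build the c ring into the synthase, measured 33.9, 31.6 and 32.8 FPKM in WT libraries 1 to 3 and 50.4, 52.2 and 54.0 FPKM in libraries 1 to 3 labelled Prkcz-/- (log2 change 0.66, SE 0.0418, limma adjusted p = 3.99e-06), and so rose without overlap where the summed c subunit mRNA was lower. Atpaf1, a chaperone of F1, and Atpif1, the inhibitor of the reverse reaction, had log2 changes of -0.33 and -0.12. The call of Atpaf1 was lost without WT library 2 or 3 or library 2 or 3 labelled Prkcz-/- (limma adjusted p up to 0.0979). It was also lost when short RNA genes were left out of the scaling, with no filter and with a replicate block (limma adjusted p = 0.0660, 0.0501 and 0.0626). The call of Atpif1 was lost without any single library except library 3 labelled Prkcz-/- (limma adjusted p up to 0.147). It was lost under all 3 other scalings too (limma adjusted p up to 0.466).

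The list of other electron entry genes was lower in all 6 tested genes, at a median log2 change of -0.71. Apart from the NADH oxidoreductase Aifm1, the listed genes serve routes that feed coenzyme Q beside complexes I and II. Gpd2, the mitochondrial glycerol phosphate dehydrogenase, measured 21.9, 22.3 and 24.3 FPKM in WT libraries 1 to 3 and 8.91, 8.52 and 8.19 FPKM in libraries 1 to 3 labelled Prkcz-/- (log2 change -1.37, SE 0.0565, limma adjusted p = 3.91e-07). Etfa, of the electron transfer flavoprotein that serves fatty acid oxidation, measured 115, 114 and 113 FPKM in WT libraries 1 to 3 and 68.4, 68.8 and 65.0 FPKM in libraries 1 to 3 labelled Prkcz-/- (log2 change -0.75, SE 0.0340, limma adjusted p = 6.39e-07). In both, every library labelled Prkcz-/- lay below every WT library. For coenzyme Q synthesis, 6 of 11 were lower and 1 higher: Coq2, the prenyl transferase, had a log2 change of -0.87, Coq3, a methyltransferase, -0.74 and Coq10a 0.44.

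Genes that tune the chain to oxygen were mostly lower. The list had 5 of 6 tested genes lower and 1 higher (median -1.18). Pdk1, the kinase that shuts pyruvate dehydrogenase in low oxygen, measured 21, 21.9 and 19.4 FPKM in WT libraries 1 to 3 and 4.0, 4.01 and 3.76 FPKM in libraries 1 to 3 labelled Prkcz-/- (log2 change -2.26, SE 0.0609, limma adjusted p = 4.37e-08). Pdk4, the relative that rises in fasting, is in the pyruvate list alone and had the largest change in size of the 122 genes. It measured 1.34, 2.23 and 1.65 FPKM in WT libraries 1 to 3 and 10.4, 10.8 and 11.0 FPKM in libraries 1 to 3 labelled Prkcz-/- (log2 change 2.35, SE 0.135, limma adjusted p = 2.38e-06), so the 2 kinases moved opposite ways without overlap. Pdk2 rose by 0.77. Higd1a, a low-oxygen factor that binds complex IV, fell from 22.4 ± 0.634 to 8.39 ± 0.326 FPKM (SD, n = 3; log2 change -1.36, SE 0.0483, limma adjusted p = 1.72e-07), and Bnip3, a mitophagy receptor, from 29.6 ± 1.65 to 10.7 ± 0.487 FPKM (log2 change -1.43, SE 0.0560, limma adjusted p = 2.92e-07). Lonp1, the matrix protease, rose by 0.24. All 3 genes listed as supercomplex factors were lower: beside Higd1a, these were Higd2a (-0.67) and Cox7a2l (-0.20).

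Of 25 citric acid cycle and pyruvate genes, 13 were lower and 10 higher (median -0.17), with Idh3a, the catalytic subunit of NAD-linked isocitrate dehydrogenase, at a log2 change of -0.66. Of 16 genes that mark mitochondrial mass and transport, 13 were lower and 2 higher (median -0.30). Slc25a5, an ADP/ATP carrier that exports what complex V makes, fell, at 241, 226 and 247 FPKM in WT and 153, 139.8 and 151 FPKM in the libraries labelled Prkcz-/- (log2 change -0.69, SE 0.0477, limma adjusted p = 6.85e-06), and Timm23, of the inner membrane import channel, had a log2 change of -0.59. Tomm22, an import receptor, and Hspa9, the matrix Hsp70, rose by 0.13 and 0.11, calls that were lost without any single library except WT library 1 (limma adjusted p up to 0.132 and 0.134). Regulators of mitochondrial biogenesis were split, with 4 of 14 higher and 5 lower (median -0.03). Tfb2m, a factor that starts mitochondrial transcription, and Pprc1, a PGC-1 related coactivator, rose by 0.50 and 0.30, and Tfb1m, a methylase of mitochondrial ribosomal RNA, and Ssbp1, which coats single-stranded mitochondrial DNA, had log2 changes of -0.46 and -0.43.

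**Figure D5:**
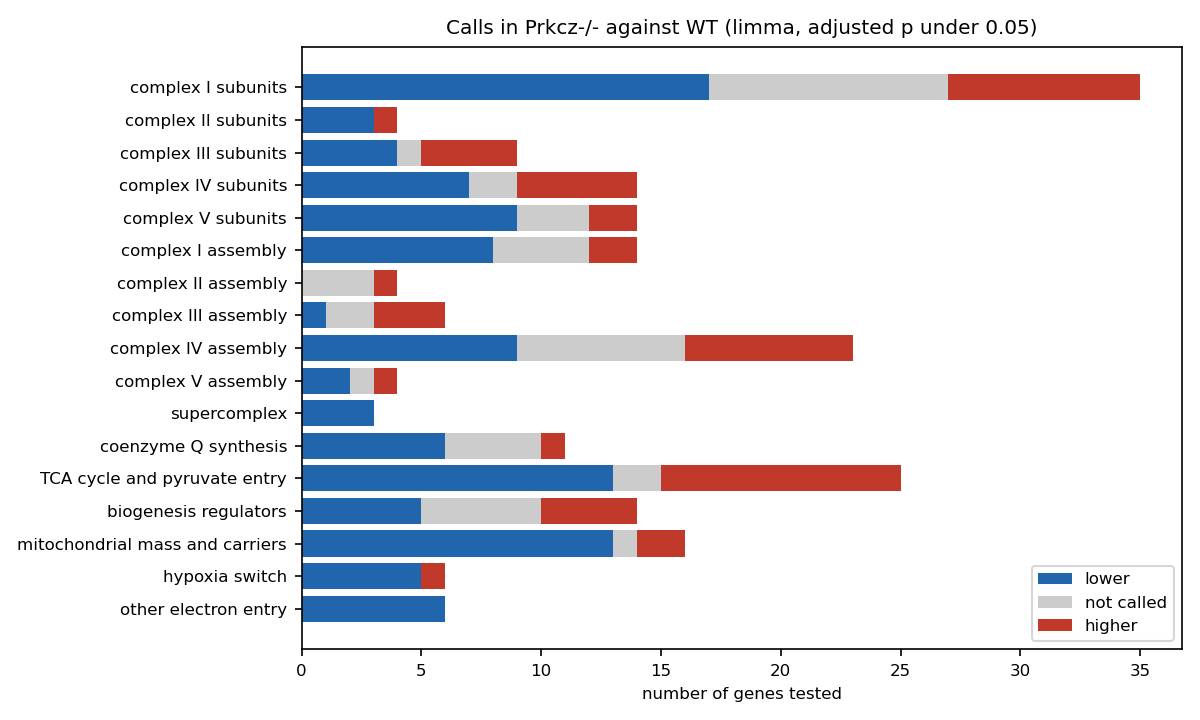
Number of tested genes called lower, not called and called higher (limma, adjusted p under 0.05) for the subunits of each complex and for 12 related lists. The 6 other electron entry genes and the 3 supercomplex factors hold lower calls alone, while complex III subunits hold 4 of each direction.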

How the data were processed

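RNA of 6 libraries (3 labelled WT, 3 labelled Prkcz-/-) was read after polyA selection with a directional kit, from a single end of 76 bases on a NextSeq 500, per the labels' protocols. The submitters' processing notes name mm10, STAR and DESeq2; not given in the sources used here are their roles and versions, the program behind the FPKM values and its gene lengths. A single table of FPKM values, 1 column for each library, is what the authors deposited.

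Because FPKM are no counts, a model on the log scale was used. log2(FPKM + 0.5) of 12130 genes (mean 0.5 FPKM or more) was compared with limma 3.58.1 in R 4.3.3 (lmFit, eBayes with a variance trend, two-sided), with Benjamini-Hochberg adjustment over all of them; the fit was checked on simulated data. Isoform shares had an exact permutation test over libraries. Positions, lengths and shared 76-base stretches came from GENCODE M21 (GRCm38, mm10), and promoters from RefSeq (GRCm38.p6). Depth of about 15000000 to 16000000 reads per library is approximate, since the authors' gene lengths are not given; read numbers carry that error. Members, lists and tests were chosen with earlier results of these data known. Named were, per complex, the 4 largest called changes, the 2 highest levels, up to 4 calls against the complex's direction, isoforms and genes left out by the filter, the 2 highest and 2 lowest called changes of each related list, and Prkcz; other names are marked. A gene that this rule selects is not reported here. Scaling, pseudocount, filter, variance model, threshold, block and single libraries were varied. The scaling without short RNA genes dropped those genes and then set every library to the same FPKM sum of the genes left. The main fit used the FPKM as deposited, with no rescaling.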

Additional observations from a re-analysis of the deposited data

How the results depend on the processing

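Across 15 alternatives of the fit (3 scalings, 2 pseudocounts, 2 filters, no variance trend, a replicate block and leaving out each of 6 libraries), 47 of the 61 called subunits kept their call and direction in every one, 14 of the 20 higher and 33 of the 41 lower. Under the 3 scalings alone 53 of 61 did, and on leaving out each library 49. The 14 that did not were Atp5e, Cox4i1, Cox6a1, Cox6b1, Ndufa1, Ndufa2, Ndufa5, Ndufb11, Ndufb8, Ndufv1, Sdhb, Uqcr11, Uqcrc2 and Uqcrq. Other scalings moved the balance: lower against higher subunits numbered 38 and 20 after median-ratio scaling, 37 and 23 when short RNA genes were left out, and 33 and 25 after quantile normalization, so that 43.1% of called subunits were higher in place of 32.8%. Their median log2 change was then -0.20, -0.15 and -0.10, beside -0.01, 0.04 and -0.07 for all genes. Among calls over all genes, 54.7% were higher with short RNA genes left out and library sums made equal, in place of 45.9%. Atp5b turned to 0.082 with short RNA genes left out and library sums made equal. After quantile normalization Atp5b turned to 0.17 and Cox6a1 to 0.011. The cause was not tested. Quantile normalization gave 4 lower subunits in complex IV and 5 higher in complex V, and scaling without short RNA genes 4 higher in complex V.

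A required log2 change of 0.5, a stricter rule by construction, left 1887 genes higher and 1590 lower, 5 subunits higher and 9 lower (complex I 1 and 3, complex II 0 and 0, complex III 0 higher, complex IV 3 and 1, complex V 1 and 2), and 8 related genes higher and 19 lower. An adjusted p under 0.01 left 12 subunits higher, 4 in complex I, 1 in complex III and 1 in complex V. Without a variance trend 5 complex I subunits were higher. Same-numbered libraries did not deviate together (r 0.0599, 0.0148 and 0.00827), so the numbers were not taken as pairs; a replicate block gave 18 subunits higher and 42 lower. Leaving out 1 library at a time gave 15 to 22 subunits higher and 37 to 44 lower, 5 to 10 higher in complex I, 1 to 4 higher in complex III and a median of -0.26 to -0.17. Without WT library 1, complex V had 3 higher. Complex III had 1 higher without library 3 labelled Prkcz-/-, and complex I had 5 without library 1 or 2 labelled Prkcz-/- or without WT library 2 or 3. FPKM without counts gives no exact depth behind a value, and low isoforms such as Cox6a2 rest on few reads.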
